A study of Saccharomyces cerevisiae S288C with 9 samples.

Results

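The genes described here lie near the ends of the 16 nuclear chromosomes of budding yeast. A row of the deposited gene count table was taken as subtelomeric when its start or end lay within 20 kb of a chromosome end of the sacCer3 genome. Flocculin (FLO) and hexose transporter (HXT) genes, Ty reading frames and tRNA rows were left out by the rule, which removed 12 of 331 rows. The remaining 319 of 7127 rows sat on 32 chromosome arms and were compared with 6741 other nuclear rows. Of the 319, 239 were protein-coding genes in RefSeq, 7 were pseudogenes and 73 were rows that RefSeq does not list. The libraries came from Saccharomyces cerevisiae S288C, each strain grown without treatment in YPD, a rich glucose medium, to mid-log phase. One strain carried Set1 with a serine changed to alanine (S228A), one carried Set1 with the same serine changed to glutamate (S228E), and the wild-type (WT) strain was the control. Each was sequenced as 3 libraries, which the series' design text calls biological replicates. Neither the mating type nor any further allele or marker is given in the sources used here, nor is the number of independent clones behind a mutant strain.

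Yeast chromosomes end in short telomeric repeats, next to X elements and, on some arms, Y' elements, which carry helicase-like reading frames. The flanking subtelomeric zone holds few essential genes and many copies of gene families for sugar, metal, vitamin and cell wall functions. Sir proteins, recruited through Rap1, deacetylate histones and silence genes at many of these ends and at the silent mating cassettes. Set1 carries the methyltransferase activity of COMPASS, which marks lysine 4 of histone H3, and strains without Set1 are known to lose part of the silencing at telomeres.

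Promoters are shown for 5 members whose values are given further on: the member with the largest fall in S228A (VAC17), members with the same promoter motif that changed in opposite directions (YEL073C and AAD15), the only raised member with a Ste12 motif (DIA1), and a duplicated gene (PHO12). Each is the 250 bases before the start codon, 5′ to 3′ on the gene's strand, read from the RefSeq R64 assembly, whose chromosome lengths equal those of sacCer3. Capitals mark the Swi4 motif CNCGAAA or the Ste12 motif TGAAACA on either strand, and PHO12 held no match to any of the motifs searched.
VAC17, chrIII:17040-17289, plus strand: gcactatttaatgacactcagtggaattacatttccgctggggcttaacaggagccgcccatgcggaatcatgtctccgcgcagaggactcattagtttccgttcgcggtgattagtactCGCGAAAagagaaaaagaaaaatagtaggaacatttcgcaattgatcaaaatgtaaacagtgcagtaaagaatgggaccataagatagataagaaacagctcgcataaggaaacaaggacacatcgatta
YEL073C, chrV:7554-7803, minus strand: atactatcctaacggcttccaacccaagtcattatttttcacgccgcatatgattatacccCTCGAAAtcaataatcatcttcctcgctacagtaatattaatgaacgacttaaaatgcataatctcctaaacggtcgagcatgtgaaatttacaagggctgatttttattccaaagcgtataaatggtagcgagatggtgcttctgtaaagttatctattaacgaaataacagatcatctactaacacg
AAD15, chrXV:2079-2328, minus strand: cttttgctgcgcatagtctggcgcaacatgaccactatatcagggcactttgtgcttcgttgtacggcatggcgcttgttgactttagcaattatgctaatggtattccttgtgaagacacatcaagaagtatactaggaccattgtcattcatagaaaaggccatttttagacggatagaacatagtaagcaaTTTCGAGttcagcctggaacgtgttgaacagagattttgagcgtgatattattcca
DIA1, chrXIII:904575-904824, plus strand: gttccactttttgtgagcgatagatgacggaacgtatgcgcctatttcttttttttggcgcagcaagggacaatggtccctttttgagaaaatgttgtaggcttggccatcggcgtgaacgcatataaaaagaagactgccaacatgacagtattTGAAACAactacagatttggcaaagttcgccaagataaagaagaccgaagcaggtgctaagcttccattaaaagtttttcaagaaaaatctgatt
PHO12, chrVIII:551849-552098, plus strand: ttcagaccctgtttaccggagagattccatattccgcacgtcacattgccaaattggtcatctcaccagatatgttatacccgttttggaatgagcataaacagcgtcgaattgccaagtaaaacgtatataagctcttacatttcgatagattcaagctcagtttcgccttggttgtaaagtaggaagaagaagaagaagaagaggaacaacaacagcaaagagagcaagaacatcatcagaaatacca

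The first base of the match lay 130 bases before the start in VAC17, 189 in YEL073C, 56 in AAD15 and 95 in DIA1. Over the 238 subtelomeric promoters searched, the Swi4 motif was present in 10.5%, against 12.5% of all 5988 promoters, and the Ste12 motif in 4.2%, against 6.11%. The motif CACGTG (Pho4 and Cbf1) was present in 2.52% of subtelomeric and 2.72% of all promoters, TGCACCC (Aft1) in 2.10% and 1.14%, and AGGGG (Msn2 and Msn4) in 18.1% and 18.8%. The 250 bases before PHO12 were identical to those before PHO11, and the 2 genes themselves had 1400 of 1404 bases in common.

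Total gene counts ranged from 14455017 to 19658103 per library, and 6133 rows had enough counts to be tested. Levels are in CPM, the read counts scaled to a common library size with TMM factors. SET1 averaged 203 CPM in S228A, 219 CPM in S228E and 199.8 CPM in WT. A changed codon can leave transcript amount as it was, so these values are no check of the labels. Replicate 2 of S228A and replicate 3 of WT differed most from others of their strain (chi-square per gene of up to 50.4 and 58.6, against 6.38 to 15.9 within S228E). The 6 a-specific markers summed to 6705 to 7826 CPM in the S228A libraries, 1544 to 1669 CPM in S228E and 1366 to 1672 CPM in WT, and the 4 alpha-specific markers to 137 to 208, 56.2 to 61.8 and 57.8 to 61.0 CPM. All 6 a-specific and 2 of 4 alpha-specific markers were called higher in S228A, and their part in the subtelomeric results was not tested. In bulk RNA, fewer cells of a type and less RNA per cell cannot be told apart. Of 21 silencing factor genes, RIF2 (log2 fold change 0.85 ± 0.11, edgeR adjusted p = 5.31e-05) was called higher in S228A and RIF1 (-0.63 ± 0.07, edgeR adjusted p = 3.01e-05) lower, and none was called in S228E against WT. In S228A against WT 12.2% of all tested rows were called. SIR4, at -0.55 ± 0.10 (edgeR adjusted p = 9.26e-04), was 1.46-fold lower and not called. Of the 21, 15 lay below 0 in S228A, against 51.1% of all tested rows.

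Subtelomeric genes were expressed at lower levels than other nuclear genes. They held 1.19 to 1.29% of all counts in the S228A libraries, 1.26 to 1.31% in S228E and 1.29 to 1.45% in WT. The ranges of S228A and WT touched at 1.29%. A few rows weighed on these shares: the 5 with most counts held 37.2 to 43.3% of the subtelomeric counts of a library. HXK1 alone had 70538 of 249778 such counts in WT replicate 3. The median WT level of members was 3.26 CPM per kb of row length, against 34.0 CPM per kb for other nuclear rows. Over tested rows only, the medians were 11.3 and 41.5 CPM per kb. Of the 319 members, 207 were tested, 62 had too few counts and 50 had no count in any library. The 112 untested members were 35.1% of the group, against 12.2% of other nuclear rows. Of the 207 tested members, 7 were testable only through S228A, since fewer than 3 of the other 6 libraries reached the filter level. Rows of that kind had to be high in S228A, and both called among them, PAU24 and YFL066C, were higher in S228A.

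Within the zone the level was higher in each bin farther from the chromosome end. The median WT level of all rows was 0.133 CPM per kb within 5 kb of an end, 2.29 from 5 to 10 kb, 5.97 from 10 to 15 kb and 21.6 from 15 to 20 kb. It was 20.7 CPM per kb from 20 to 30 kb and 34.3 beyond 50 kb. Over tested rows only, the difference was smaller. The medians were 5.31, 7.17, 9.96 and 23.0 CPM per kb over the same 4 bins, 28.3 from 20 to 30 kb and 42.3 beyond 50 kb. The share of rows with enough counts to test was 42.2%, 60.2%, 74.3% and 91.0% over the 4 inner bins, against 89.2% from 20 to 30 kb. Untested members were also more repeated in sequence. The median share of 31-base stretches found once in the genome was 0% for the 50 members without a count, 17.3% for the 62 others not tested and 91.6% for the 207 tested, against 100% for other nuclear rows. Some members without a count, such as YBL113W-A and YEL077W-A, also lie wholly inside another row. Reads from repeated or shared stretches may not be counted, so a low count near an end does not show a silent gene. The parts of silencing, of repeats and of overlap in these levels were not tested.

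The 5 tested members with the highest WT level per kb lay between 12.3 and 16.3 kb from an end, and all their 31-base stretches were found once. HXK1, a hexokinase of glucose metabolism, had 2672, 3379 and 2571 CPM in S228A, 2522, 3246 and 3321 CPM in S228E, and 3203, 2969 and 4035 CPM in WT. HYR1, a peroxiredoxin of the oxidative stress response, MSC1, CHA1, the serine and threonine deaminase, and ADH6, an NADPH-dependent alcohol dehydrogenase, followed at 553, 439, 433 and 384 CPM per kb in WT. None of the 5 was called in any comparison with all libraries. MSC1, which bears on recombination and repair, had 470.5, 512 and 438 CPM in S228A, 536, 713 and 742 CPM in S228E, and 676, 599.9 and 756 CPM in WT. All 3 S228A values lay under the other 6, yet the log2 fold change against WT of -0.52 ± 0.12 (SE; edgeR adjusted p = 0.00596) was short of the 1.5-fold threshold used throughout; without WT replicate 2 it was called, at -0.60. CHA1 was also under the threshold, at -0.47 ± 0.10 (edgeR adjusted p = 0.00221).

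**Figure D1:**
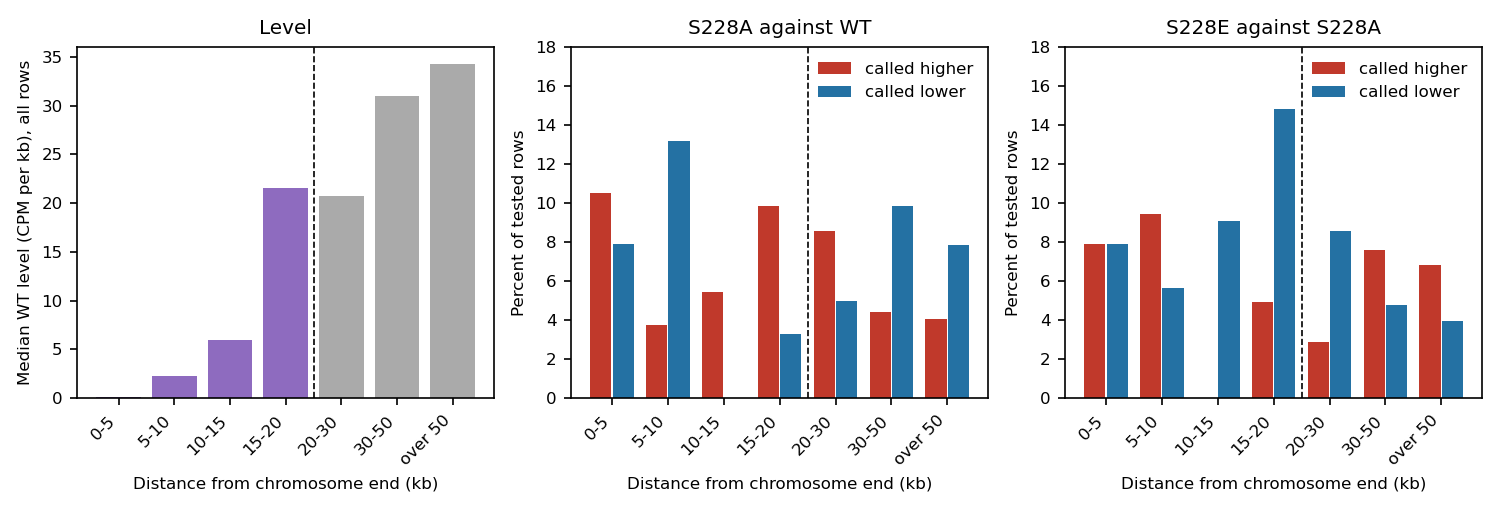
Median WT level (left, CPM per kb of row length, all rows; purple for subtelomeric and grey for other bins) and the percent of tested rows called higher or lower in S228A against WT (middle) and in S228E against S228A (right), by distance from the chromosome end in kb. The dashed line marks the 20 kb limit. The median level is 0.133 CPM per kb in the bin nearest the end and 34.3 beyond 50 kb, while the percent called shows no steady trend. In the middle panel, rows called higher nearest the end include PAU24 and YFL066C, which were testable only through S228A.

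The silent mating cassette and the Y' elements illustrate the limits of counting near an end. HMLALPHA1 and HMLALPHA2, the silent copies of the alpha regulators, had 0 counts in all 9 libraries, and none of their 31-base stretches was found once, since the MAT locus holds the same sequence. The annotation places a telomeric region on each of the 32 arms, 17 of them with a Y' element. Rows inside these regions numbered 83, of which 27 were tested and 32 had no count. All 27 lay in regions with a Y' element. In S228A against WT, 2 of the 27 were called higher (YFL067W and YFL066C) and 2 lower (YHL050C and YML133C), against 4.37% of all tested rows called higher and 7.81% called lower. YFL066C was testable only through S228A. The median log2 fold change of the 27 was -0.16. The 4 testable Y' helicase genes YRF1-1, YRF1-2, YRF1-4 and YRF1-5 summed, with the other 4, to 23.2 to 28.0 CPM in S228A, 22.8 to 30.6 CPM in S228E and 27.2 to 37.0 CPM in WT, and none was called, though YRF1-1 was called lower without WT replicate 1.

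The comparison of S228A with WT asks how loss of the serine altered expression at chromosome ends. Calls required over 1.5-fold change together with an adjusted p under 0.05 (edgeR, quasi-likelihood, Benjamini-Hochberg). Of the 207 tested members 27 were called (13%), against 12.2% of all 6133 tested rows and 12.1% of other nuclear rows. The 15 called higher were 7.25% of tested members, against 4.37% of all tested rows. The 12 called lower were 5.80%, against 7.81% of all tested rows. The share of called members was thus near the background. Without the rows testable only through S228A, 13 of 200 members were called higher (6.50%), against 4.11% of all such rows, and 12 lower (6%), against 7.87%. At an unadjusted edgeR p under 0.05, which does not tell direction, 68 members passed (32.9%), against 44.7% of all tested rows. In 34 members (16.4%) all 3 S228A values lay above all 3 WT values, against 20.2% of all tested rows, and in 42 (20.3%) below, against 24.3%. These shares were under those of all tested rows in both directions. Members also had lower levels, and the part of level in these shares was not tested. The median log2 fold change was 0.02 in subtelomeric and -0.01 in all tested rows, and 103 of 207 members (49.8%) lay below 0, against 51.1% of all tested rows. The quartiles were -0.27 and 0.32 in members, against -0.23 and 0.18 in all tested rows. Without WT replicate 3, 22 members were called higher and 11 lower. The share of all tested rows called in that fit is not given here, so these counts have no background beside them. Of the 27, 6 (PAU24, PAU12, YHL050C, ARN2, YML133C and DIA1) overlap another annotated row. Without strand, reads from the shared stretch cannot be assigned to either row alone.

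**Figure D2:**
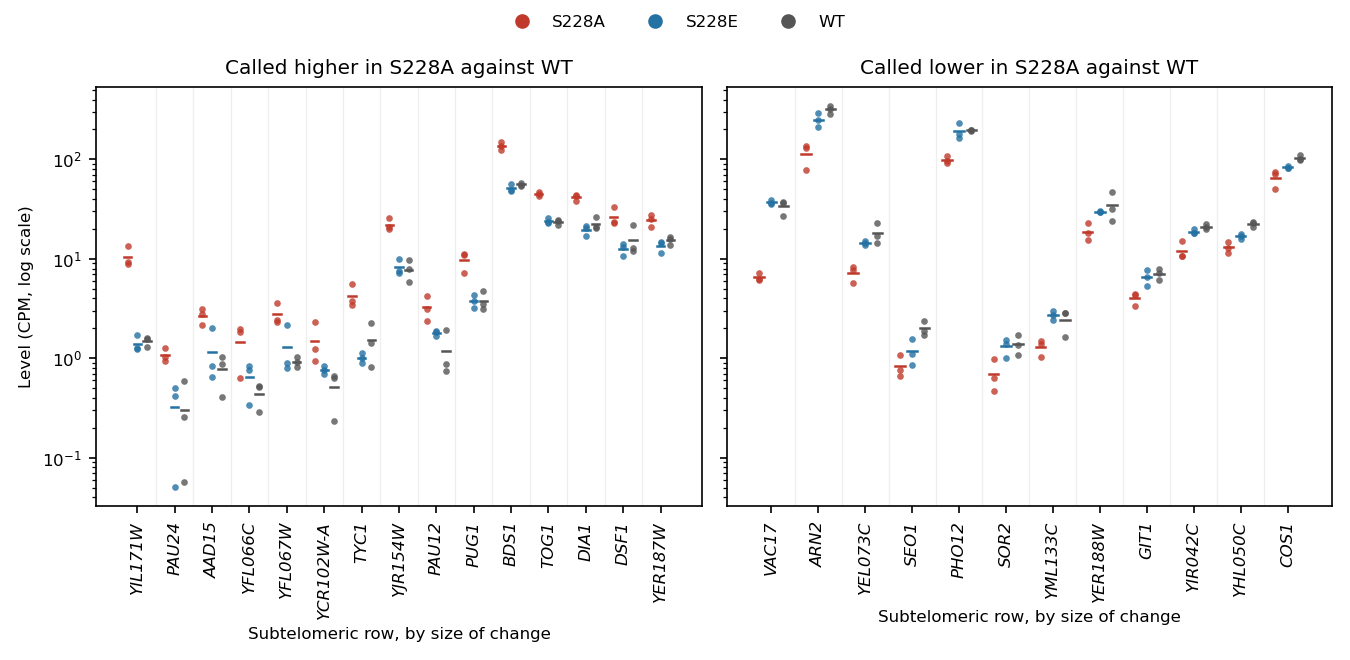
Level of each of the 15 subtelomeric rows called higher (left) and the 12 called lower (right) in S228A against WT, on a log CPM axis, with a point per library (3 per strain) and a bar at the strain mean. S228A is left of S228E and WT in each row; BDS1 sits at 125 to 151 CPM in S228A and at 54.6 to 58.4 CPM in WT, and VAC17 at 6.16 to 7.13 CPM in S228A and at 27.0 to 37.7 CPM in WT.

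Among the raised members, BDS1 (YOL164W), a sulfatase used to take sulfur from alkyl sulfates, had the highest level. It had 151, 125 and 138 CPM in S228A, 57.1, 49.4 and 48.3 CPM in S228E, and 58.4, 55.8 and 54.6 CPM in WT. The S228A values lay above all others, and the log2 fold change against WT was 1.29 ± 0.09 (SE; edgeR adjusted p = 2.00e-07), or 2.45-fold. YJR154W, an uncharacterized protein, had 25.5, 20 and 20.7 CPM in S228A, 9.99, 7.56 and 7.28 CPM in S228E, and 7.87, 5.92 and 9.67 CPM in WT, a log2 change of 1.49 ± 0.18 (edgeR adjusted p = 4.16e-05). DIA1, which acts in invasive and pseudohyphal growth and whose promoter holds the Ste12 motif shown above, had 44.1, 38.6 and 42.5 CPM in S228A, 20.3, 21.3 and 17.1 CPM in S228E, and 26.3, 21.1 and 20.3 CPM in WT. Its log2 fold change was 0.88 ± 0.12 (edgeR adjusted p = 8.05e-05). Of the 13 raised members with a promoter searched, DIA1 was the 1 with that motif.

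YIL171W had the largest rise of all members, with 9.36, 13.4 and 8.92 CPM in S228A, 1.26, 1.24 and 1.73 CPM in S228E, and 1.58, 1.29 and 1.60 CPM in WT. The log2 fold change was 2.82 ± 0.23 (edgeR adjusted p = 9.58e-07). This pseudogene lies 19.5 kb from the left end of chromosome IX and, with the neighbouring HXT12, is annotated as a hexose transporter broken into separate reading frames. HXT12, left out by the rule, had 28.9, 32.6 and 30.5 CPM in S228A, 5.35, 5.47 and 5.48 CPM in S228E, and 5.06, 5.98 and 7.44 CPM in WT. Both pieces were therefore higher in every S228A library than in any other. Only 48.6% of the 31-base stretches of HXT12 were found once, so some of its reads may come from other copies.

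On the right arm of chromosome V, 3 raised members and 1 lowered member lay within 20 kb of the end. TOG1, a zinc cluster activator of oleate genes (YER184C, 18.2 kb from the end), had 44.6, 47.5 and 42.8 CPM in S228A, 23.4, 25.7 and 23.2 CPM in S228E, and 23.8, 21.7 and 24.5 CPM in WT, a log2 change of 0.94 ± 0.09 (edgeR adjusted p = 2.87e-06). PUG1, a plasma membrane protein that moves protoporphyrin and heme (16.5 kb), had 7.19, 11.1 and 11 CPM in S228A, 3.78, 4.29 and 3.19 CPM in S228E, and 4.70, 3.52 and 3.15 CPM in WT (log2 1.36 ± 0.22, edgeR adjusted p = 4.15e-04). The uncharacterized YER187W (10.2 kb) had a log2 change of 0.67 ± 0.14 (edgeR adjusted p = 0.00232). The next called row toward the end, YER188W (8.12 kb), had 18, 15.4 and 23.1 CPM in S228A, 29.4, 29.6 and 30 CPM in S228E, and 31.9, 47.5 and 24.1 CPM in WT. Its log2 fold change was -0.87 ± 0.21 (edgeR adjusted p = 0.00586), and without WT replicate 2 it was not called. Raised and lowered rows thus stood on 1 arm, and 3 of the 18 arms with a called member held both directions.

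Within 5 kb of an end AAD15, YFL067W, YFL066C and PAU24 were called higher, all at low levels and in sequence that was mostly repeated elsewhere. AAD15, a putative aryl alcohol dehydrogenase, had 2.17, 3.10 and 2.81 CPM in S228A, 0.656, 0.847 and 2.01 CPM in S228E, and 0.409, 0.880 and 1.03 CPM in WT, a log2 change of 1.81 ± 0.41 (edgeR adjusted p = 0.00457). YFL067W, an uncharacterized protein, had 2.45, 3.62 and 2.31 CPM in S228A, 0.807, 0.903 and 2.15 CPM in S228E, and 0.920, 0.821 and 1.03 CPM in WT (log2 1.59 ± 0.36, edgeR adjusted p = 0.00460). In its neighbour YFL066C, a helicase-like row of the Y' element with a log2 change of 1.72 ± 0.49 (edgeR adjusted p = 0.0153), only 0.696% of the 31-base stretches were found once. YFL066C passed the count filter only through S228A, so its test is no evidence of a difference, and its call was lost without S228A replicate 2 or replicate 3. The remaining raised members were TYC1, an inhibitor of the anaphase-promoting complex, at log2 1.49 ± 0.32 (edgeR adjusted p = 0.00304), YCR102W-A at 1.52 ± 0.44 (edgeR adjusted p = 0.0167; not called without S228A replicate 1 or WT replicate 2), the cell wall gene pair PAU12 and PAU24, and DSF1.

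Among the 12 lowered members VAC17 changed most. VAC17 (YCL063W, chrIII:17290-18561) encodes the adaptor that ties the vacuole to the myosin Myo2 so that it is passed to the bud. It had 6.16, 7.13 and 6.33 CPM in S228A, 39.2, 36.4 and 35.6 CPM in S228E, and 36.6, 37.7 and 27.0 CPM in WT. The 3 S228A values lay far below the other 6, and the log2 fold change against WT was -2.36 ± 0.14 (SE; edgeR adjusted p = 3.64e-08), or 5.15-fold lower. The adjacent MRC1, a mediator of the replication checkpoint, had 18, 18 and 18.7 CPM in S228A, 28.9, 29.6 and 25.7 CPM in S228E, and 28.7, 24.4 and 28.5 CPM in WT, with a log2 change of -0.58 ± 0.10 (edgeR adjusted p = 6.46e-04) that was just short of 1.5-fold. At the same chromosome end, the Ty reading frames YCL076W, YCL075W and YCL074W, left out by the rule, had 16.4 to 93.0 CPM over the S228A libraries and at most 0.282 CPM in any S228E or WT library. Their part in the VAC17 result was not tested.

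ARN2, a siderophore-iron transporter (YHL047C), had 136.0, 77.8 and 130.2 CPM in S228A, 250.3, 209.7 and 294 CPM in S228E, and 347, 323 and 287 CPM in WT. Its log2 fold change was -1.48 ± 0.18 (edgeR adjusted p = 4.33e-05), and no S228A value reached those of the other strains. PHO12, a repressible acid phosphatase, had 109, 91.5 and 96.0 CPM in S228A, 232, 166 and 179.8 CPM in S228E, and 199, 193 and 197 CPM in WT (log2 -0.99 ± 0.11, edgeR adjusted p = 2.38e-05). Its near-identical copy PHO11, whose promoter is the one printed for PHO12, had 58.4, 49.7 and 48.4 CPM in S228A, 93.3, 71.6 and 69.9 CPM in S228E, and 67.6, 73.4 and 74.3 CPM in WT. The log2 fold change of PHO11 was -0.46 ± 0.11 (edgeR adjusted p = 0.00685), under the fold threshold. Only 7.42% of the 31-base stretches of PHO11 and 8.44% of those of PHO12 were found once, so how reads were split between the pair is uncertain.

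YEL073C, an uncharacterized row 7.23 kb from the left end of chromosome V, had 7.71, 5.68 and 8.21 CPM in S228A, 13.7, 15.2 and 14.6 CPM in S228E, and 17.1, 14.5 and 22.9 CPM in WT (log2 -1.34 ± 0.18, edgeR adjusted p = 1.04e-04). Its promoter and that of VAC17 hold the Swi4 motif, as does that of YHL050C: 3 of the 12 lowered members, against 2 of 13 raised members searched (YFL066C and AAD15). SEO1, a putative permease, had 1.08, 0.671 and 0.771 CPM in S228A, 0.858, 1.58 and 1.11 CPM in S228E, and 1.89, 2.40 and 1.72 CPM in WT (log2 -1.25 ± 0.32, edgeR adjusted p = 0.00858). GIT1, the glycerophosphoinositol permease, had 3.37, 4.34 and 4.41 CPM in S228A, 6.56, 5.31 and 7.77 CPM in S228E, and 6.13, 7.27 and 7.84 CPM in WT, with a log2 change of -0.81 ± 0.19 (edgeR adjusted p = 0.00613). The uncharacterized YIR042C was at -0.80 ± 0.14 (edgeR adjusted p = 6.36e-04), and its promoter was the 1 among lowered members with CACGTG. The Y' row YHL050C, with 11.5, 13 and 14.7 CPM in S228A, 15.8, 16.8 and 17.8 CPM in S228E, and 22.7, 20.9 and 23.7 CPM in WT, was at -0.78 ± 0.12 (edgeR adjusted p = 2.22e-04). Weaker calls were YML133C at -0.91 ± 0.28 (edgeR adjusted p = 0.0227; not called without S228A replicate 1, WT replicate 1 or WT replicate 3) and the sorbitol dehydrogenase copy SOR2 at -0.98 ± 0.36 (edgeR adjusted p = 0.0482; called in 3 of 15 alternative analyses, and not without any 1 library other than S228A replicate 3). For YML133C 0.739% and for SOR2 2.97% of the 31-base stretches were found once.

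The share of tested rows called in S228A against WT did not change steadily with distance: it was 18.4%, 17.0%, 5.45% and 13.1% over the 4 bins from the end outward, 13.6% from 20 to 30 kb and 11.9% beyond 50 kb. Within 5 kb 4 of 38 tested rows were called higher and 3 lower. The 4 include PAU24 and YFL066C, testable only through S228A, whose tests are no evidence of a difference. From 5 to 10 kb 2 of 53 were called higher and 7 lower. The counts were 3 and 0 of 55 from 10 to 15 kb, and 6 and 2 of 61 from 15 to 20 kb. From 20 to 30 kb 12 of 140 were called higher (8.57%) and 7 lower. Since subtelomeric genes are weakly expressed, calls were also set out by mean level. Under 1 CPM, 3 of 21 members were called higher (14.3%), against 4.79% of other nuclear rows, and 0 lower, against 10.3%, and this class holds PAU24 and YFL066C. Between 1 and 10 CPM, 6 of 76 members were called higher (7.89%), against 5.99% of other nuclear rows, and 4 lower (5.26%), against 12.9%. Between 10 and 100 CPM, 6 of 84 were called higher (7.14%), against 3.78%, and 6 lower (7.14%), against 8.31%. Above 100 CPM, 0 of 26 were called higher, against 4.23%, and 2 lower (7.69%), against 5.22%. Among the 122 tested members with at least 50% of their 31-base stretches found once, 9 were called higher (7.38%) and 7 lower (5.74%). Among the 85 more repeated ones, which include PAU24 and YFL066C, 6 were called higher (7.06%) and 5 lower (5.88%). The background over the 6133 tested rows was 4.37% for higher and 7.81% for lower.

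**Figure D3:**
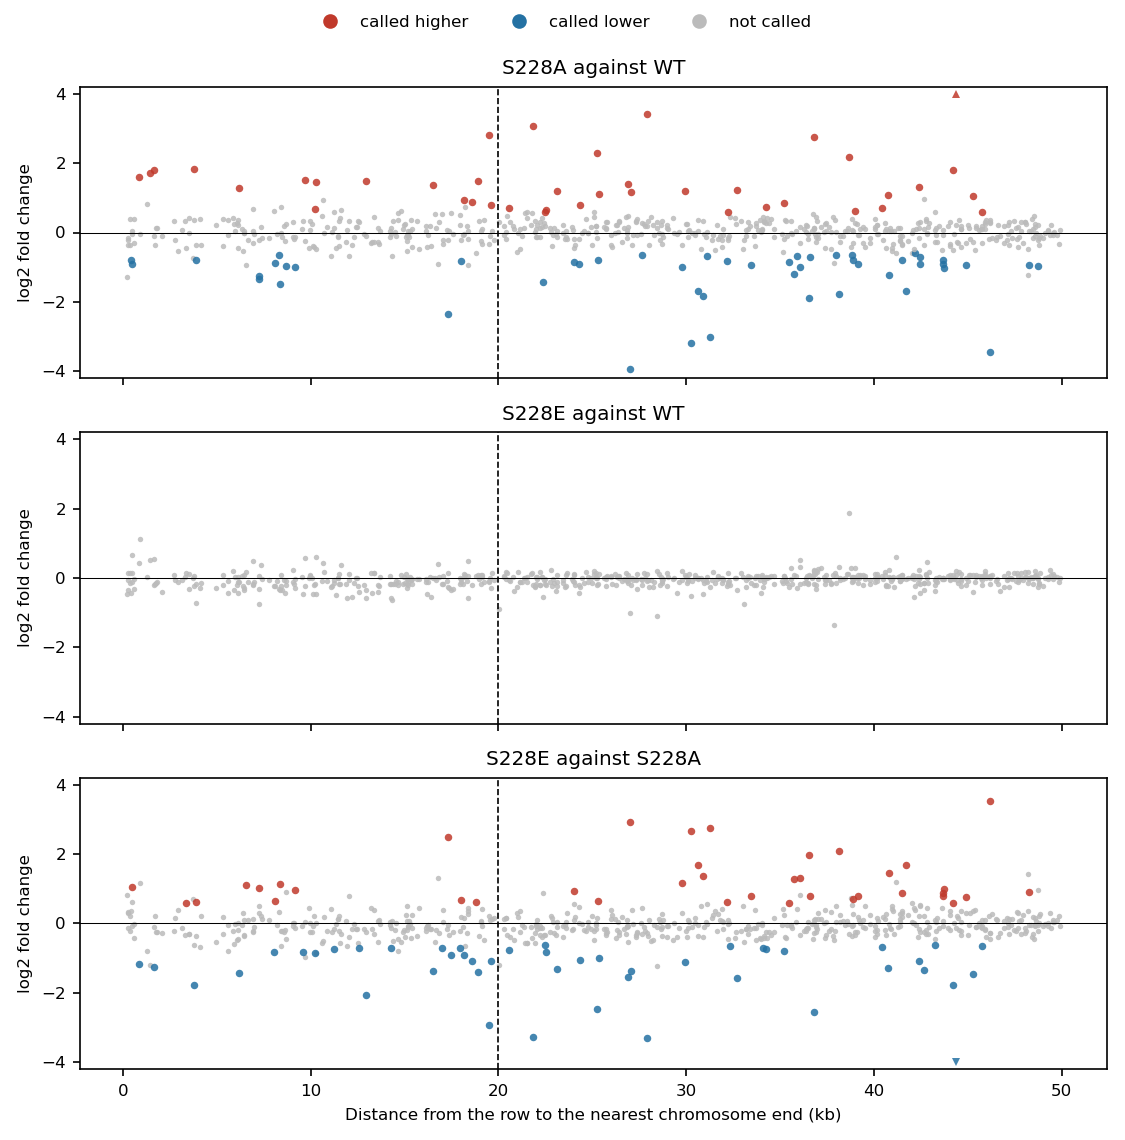
Log2 fold change of every tested nuclear row within 50 kb of a chromosome end against its distance from the end in kb, for S228A against WT (top), S228E against WT (middle) and S228E against S228A (bottom). Red points were called higher, blue lower and grey neither; the dashed line marks the 20 kb limit, and triangles stand for values beyond the axis; called rows are spread on both sides of the limit in the top and bottom panels, and the middle panel has none.

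In S228A, between 0 and 2 members of each gene family were called. Of the PAU genes, seripauperins of the cell wall that are induced without oxygen, 19 lay in the zone, only 6 were tested and 2 were called higher (PAU12 and PAU24), with a median log2 fold change of 0.55. Of all tested rows, 4.37% were called higher. PAU24 was testable only through S228A, so its test is no evidence of a difference. PAU12 had 2.40, 3.15 and 4.24 CPM in S228A, 1.82, 1.69 and 1.87 CPM in S228E, and 0.869, 1.94 and 0.744 CPM in WT (log2 1.47 ± 0.34, edgeR adjusted p = 0.00505). PAU24 had 1.26, 1.03 and 0.936 CPM in S228A, 0.0505, 0.508 and 0.416 CPM in S228E, and 0.256, 0.587 and 0.0572 CPM in WT (log2 1.83 ± 0.60, edgeR adjusted p = 0.0309). PAU3, at 0.73 ± 0.34, and PAU6, at -0.11 ± 0.19, did not pass the test (edgeR adjusted p of 0.117 and 0.700), though PAU3 was called, at 1.01, without S228A replicate 1. The PAU24 call was lost without S228A replicate 1 or 2 and without WT replicate 1 or 3. All 19 summed to 13 to 16.8 CPM in S228A, 9.43 to 11.1 CPM in S228E and 10.7 to 14 CPM in WT, and no PAU gene had more than 37.1% of its 31-base stretches found once.

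The 11 COS genes, a family of integral membrane proteins, were all tested, with log2 fold changes in S228A from -0.66 to 0.34 and a median of -0.03. COS1 was the 1 called, with 71.0, 50.1 and 75.6 CPM in S228A, 81.9, 81.4 and 85.6 CPM in S228E, and 102, 110.4 and 99.5 CPM in WT (log2 -0.66 ± 0.12, edgeR adjusted p = 0.00107); without S228A replicate 2 it was not called. COS8 at -0.54 ± 0.11 (edgeR adjusted p = 0.00192) was under the fold threshold (called, at -0.67, without S228A replicate 3), and COS10 at 0.34 ± 0.12 (edgeR adjusted p = 0.0447) pointed the other way. Of 6 aryl alcohol dehydrogenase genes AAD15 was called, and the next, AAD10, had 27.9, 22.4 and 26.7 CPM in S228A, 12.8, 14.4 and 13.7 CPM in S228E, and 18, 16.9 and 17.0 CPM in WT. Its log2 fold change of 0.57 ± 0.11 (edgeR adjusted p = 0.00149) lay at 1.48-fold, and without S228A replicate 2 or WT replicate 1 it was called. AAD3 and AAD4, at -0.11 and -0.04, did not pass the test.

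Of 5 iron and siderophore uptake genes in the zone, all had log2 fold changes below 0 in S228A, from -1.48 (ARN2) to -0.19, and ARN2 was the 1 called. FET4, a low-affinity iron transporter, was at -0.46 ± 0.12 (edgeR adjusted p = 0.00854), and the siderophore transporters ENB1 and ARN1 at -0.34 and -0.24 did not pass the test. Together the 5 summed to 619.6 to 892 CPM in S228A, 1034 to 1164 CPM in S228E and 1114 to 1271 CPM in WT, so the S228A range lay below the others. Of all tested rows, 7.81% were called lower in S228A against WT and 51.1% lay below 0. In 24.3% of all tested rows, all 3 S228A values lay below all 3 WT values. None of the 8 tested maltose and isomaltose genes was called, and 7 of the 8 lay above 0, with a median of 0.26. Without WT replicate 3, MAL33 was called higher, at 0.94. The maltose permease MAL31 had 202, 236 and 187 CPM in S228A, 137, 159 and 162 CPM in S228E, and 169, 131 and 224 CPM in WT, a log2 change of 0.25 ± 0.16 (edgeR adjusted p = 0.234). MAL13, a regulator of maltose genes, was at 0.36 ± 0.11 (edgeR adjusted p = 0.0242). None of the 8 thiamine and vitamin B6 genes was called, at -0.47 to 0.63 with a median of -0.31. The 3 arsenic resistance genes ARR1, ARR2 and ARR3 lay between -0.13 and 0.05. Of 7 tested transporter list members SEO1 was called lower and DSF1, in fact a mannitol dehydrogenase, higher, with 22.7, 33.3 and 23.6 CPM in S228A, 10.7, 13.3 and 14 CPM in S228E, and 12.8, 11.9 and 21.8 CPM in WT (log2 0.78 ± 0.22, edgeR adjusted p = 0.0147; not called without S228A replicate 2 or WT replicate 1). The list of sorbitol and other dehydrogenases had 1 of 5 called lower (SOR2), and the enolase-related genes ERR1, ERR2 and ERR3 had 17 counts in S228A, 34 in S228E and 38 in WT over all libraries, too few to test.

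**Figure D4:**
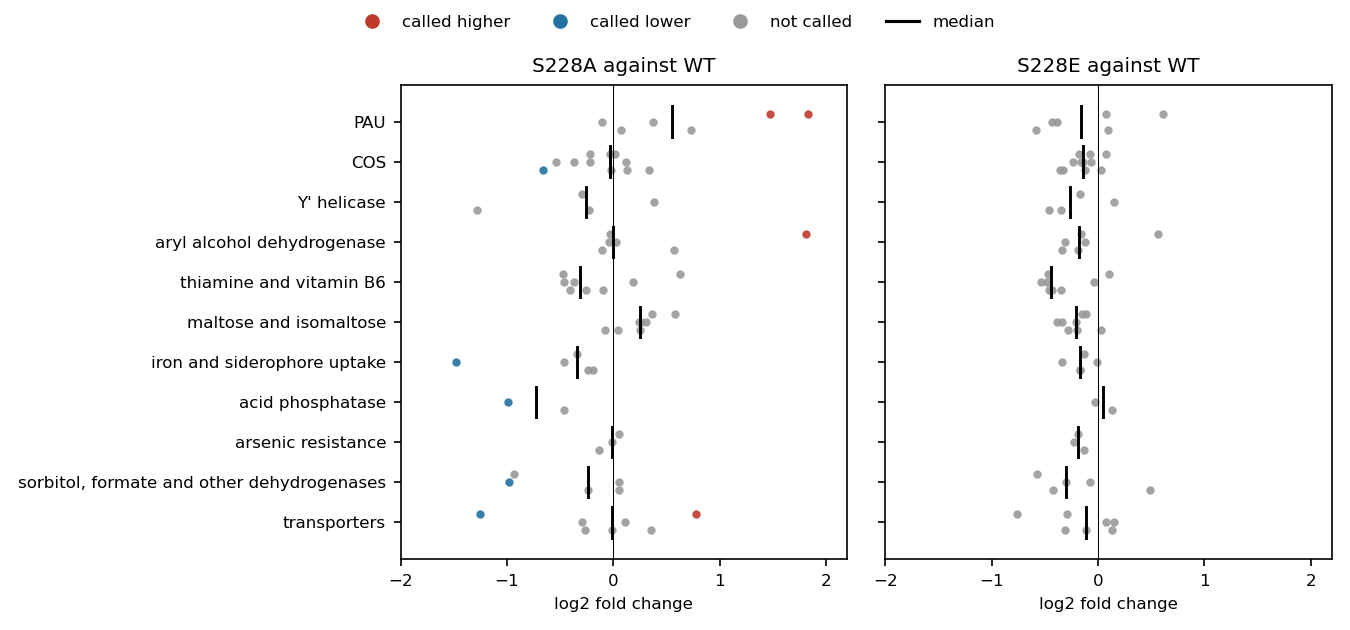
Log2 fold change of each tested subtelomeric family member in S228A against WT (left) and S228E against WT (right), 1 point per gene with vertical scatter for legibility only, and a black bar at the family median. In S228A called members stand in 7 of the 11 families shown, and in S228E no member is called and 10 of the 11 medians lie below 0.

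The comparison of S228E with WT asks whether glutamate at the same site, often used to imitate a phosphorylated serine, altered these genes. No subtelomeric row was called in edgeR, DESeq2 or limma-voom, and 3 of all 6133 tested rows (0.0489%) were called in edgeR. At an unadjusted edgeR p under 0.05, 21 members passed (10.1%), against 5.63% of all tested rows. Of members at 1 CPM or more, the lowest p-values were those of YLL066C, YHL050C and SRY1 among the lower and YIL177C, GAB1 and FDH2 among the higher. YLL066C, a putative Y' helicase row, had 20.9, 16.4 and 20.2 CPM in S228E and 25.1, 25.5 and 27.2 CPM in WT (log2 -0.43 ± 0.12, edgeR adjusted p = 0.644). SRY1, a hydroxyaspartate dehydratase, had 35.0, 37.0 and 38.7 CPM in S228E and 43.5, 41.5 and 51.6 CPM in WT (log2 -0.30 ± 0.09, edgeR adjusted p = 0.644). YIL177C, another Y' helicase row, had 2.73, 2.48 and 1.18 CPM in S228E and 1.02, 1.47 and 1.66 CPM in WT (log2 0.66 ± 0.33, edgeR adjusted p = 0.849). GAB1, of the GPI transamidase, was at 0.15 ± 0.08 and FDH2, of formate dehydrogenase, at 0.49 ± 0.27 (edgeR adjusted p of 0.849 and 0.855).

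Although no single gene passed, the S228E values of subtelomeric rows lay slightly under those of WT more often than those of all tested rows. The median log2 fold change was -0.11, and 143 of 207 members (69.1%) lay below 0, against 51.2% of all tested rows. In 35 members (16.9%) all 3 S228E values were below all 3 WT values, against 7.68% of all tested rows, and in 5 (2.42%) they were all above, against 6.73%. Of the 32 arms, 22 had a median below 0. The shift was present in each of the 4 inner bins, with medians of -0.09, -0.12, -0.16 and -0.06 from the end outward. From 20 to 30 kb the median was -0.04, and 87 of 140 tested rows lay below 0. By mean level, the medians of members and of other nuclear rows were -0.02 and -0.16 under 1 CPM, and -0.08 and -0.04 from 1 to 10 CPM. They were -0.13 and -0.00 from 10 to 100 CPM, and -0.03 and 0.01 above 100 CPM. Among the 122 members with mostly unique sequence 74.6% lay below 0, and among the more repeated 85 members 61.2%. WT replicate 3, in which subtelomeric rows held 1.45% of counts, weighed on this value: without it the median was -0.06, and without S228E replicate 2 it was -0.08. No test of the shift as a whole was made, and members of 1 arm or family are not independent.

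Family members are part of the same 207 rows, in lists chosen with earlier results known, so they are no separate evidence of the displacement in S228E. The thiamine and vitamin B6 genes had 7 of 8 log2 fold changes below 0 and a median of -0.45, among them SNO2 at -0.54 ± 0.20 and SNZ3 at -0.48 ± 0.17, whose products act together in pyridoxine synthesis (edgeR adjusted p of 0.761 and 0.743). The median share of their 31-base stretches found once was 14.3%, so the split of reads between copies is uncertain. Of the maltose and isomaltose genes 7 of 8 and of the COS genes 9 of 11 lay below 0, with medians of -0.21 and -0.14. WT replicate 3 was the highest WT library in MAL11, MAL12, MAL13, MAL31, MAL32 and MAL33, and not in MPH2 and MPH3. The acid phosphatases lay at -0.03 (PHO12) and 0.13 (PHO11). None of these values passed the test.

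Set directly against S228A, S228E had more subtelomeric genes lower than higher. Of 207 tested members 31 were called (15%), against 11.1% of all tested rows. The 11 called higher in S228E were 5.31%, against 6.73% of all tested rows, and the 20 called lower were 9.66%, against 4.35%. PAU24, testable only through S228A, is 1 of the 20. The median log2 fold change was -0.13 in subtelomeric rows and within 0.01 of 0 in all tested rows. From 20 to 30 kb, just outside the zone, 12 of 140 tested rows were called lower (8.57%) and 4 higher (2.86%). Their median was -0.14, so the tilt was not confined to the zone. This comparison shares the S228A libraries with that of S228A and WT, so it is no separate evidence on them. The counts of called members changed when single libraries were left out, which leaves fewer libraries for the test of every row. The shares of all tested rows called in those fits are not given here. Without S228A replicate 1, 6 members were called higher, against 7 without S228A replicate 2 and 7 without S228E replicate 1. Without S228A replicate 2 or S228E replicate 2, 13 were called lower.

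VAC17 (log2 2.50 ± 0.14, edgeR adjusted p = 1.99e-08) and ARN2 (1.13 ± 0.18, edgeR adjusted p = 4.10e-04) led the members higher in S228E than in S228A, and PHO12 was at 0.96 ± 0.11 (edgeR adjusted p = 3.03e-05). PHO11 (0.59 ± 0.11, edgeR adjusted p = 0.00159) and MRC1 (0.62 ± 0.10, edgeR adjusted p = 3.78e-04) passed the fold threshold here, MRC1 not without S228E replicate 2 and PHO11 in 7 of 15 alternative analyses (not without S228A replicate 2 or 3, S228E replicate 1 or WT replicate 3). YMR321C, an uncharacterized row with 1.72, 2.09 and 1.94 CPM in S228E and 1.08, 0.517 and 1.05 CPM in S228A, was at 1.12 ± 0.38 (edgeR adjusted p = 0.0414) and was called in 7 of 15 alternative analyses (not without any 1 library of S228A or S228E, nor without WT replicate 1). YIL171W (-2.92 ± 0.23, edgeR adjusted p = 8.11e-07), TYC1 (-2.06 ± 0.34, edgeR adjusted p = 5.17e-04) and BDS1 (-1.42 ± 0.09, edgeR adjusted p = 8.39e-08) were among those lower in S228E. MAN2, the paralog of DSF1, had 6.26, 8.24 and 9.99 CPM in S228E and 13, 17.5 and 12.8 CPM in S228A (log2 -0.83 ± 0.25, edgeR adjusted p = 0.0219). The amino acid permease gene AGP3 had 16.5, 17.2 and 16.9 CPM in S228E and 25.2, 28.3 and 28.6 CPM in S228A (log2 -0.70 ± 0.11, edgeR adjusted p = 3.20e-04). AAD10 was at -0.91 ± 0.11 (edgeR adjusted p = 4.05e-05), and IRC4, of unknown biochemical role, at -0.71 ± 0.18 (edgeR adjusted p = 0.00993). The maltose regulator MAL33 (-0.74 ± 0.23, edgeR adjusted p = 0.0309), the maltase MAL12 (-0.70 ± 0.23, edgeR adjusted p = 0.0336) and the S-methylmethionine permease MMP1 (-0.70 ± 0.20, edgeR adjusted p = 0.0215) were called lower too. Calls of MAN2, MAL33, MAL12 and MMP1 were lost without S228A replicate 2, without S228E replicate 1 and without S228E replicate 2, and that of MAL33 also without S228E replicate 3 and that of MAL12 also without S228A replicate 1.

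Of the genes nearest the 20 kb limit, the 2 tested rows on each side were not called in S228A against WT. DSF1 (19.6 kb) and YIL171W (19.5 kb) were called higher, as were HXT12 (19.8 kb) and HXT9, both left out by the rule. HXT9 was at 2.71 ± 0.18 (edgeR adjusted p = 1.18e-07). Of their 31-base stretches, 48.6% in HXT12 and 28.6% in HXT9 were found once, so the split of reads between copies is uncertain. Just inside the limit, YPR195C (19.8 kb) and GAB1 (19.7 kb) had log2 fold changes in S228A against WT of -0.22 and 0.03. Just outside, YMR315W-A (20 kb) and PRE4, a proteasome subunit gene (20.3 kb), had values of 0.30 and 0.19.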

How the data were processed

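The authors deposited 1 table of raw counts, with a row per annotated gene and a column per library (9); per the file headers, featureCounts 2.0.1 counted read pairs in exons, summed by gene identifier of the Ensembl sacCer3 annotation. That command sets neither strand nor multi-mapping options, so reads of both strands share a row and repeated genes may be undercounted. Bowtie 0.12.2 and sacCer3 appear in the submitters' processing notes with no role. Which program aligned the RNA reads is not stated there. A KAPA kit is named in the labels' protocols; their extraction step is one for chromatin immunoprecipitation, while the design text gives phenol-chloroform extraction of total RNA. Column names give a letter for the genotype and a replicate number, and were matched on both.

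Gene symbols, biotypes, telomeric regions and sequences came from RefSeq R64: 6047 of 7127 rows had a locus tag. Distance runs from a row's nearest edge to the nearest chromosome end. Rows were filtered with filterByExpr, TMM-scaled and tested with edgeR 4.0.16 (R 4.3.3; glmQLFit and glmQLFTest) in 1 fit over 9 libraries, with Benjamini-Hochberg adjustment over all 6133 tested rows; calls used the thresholds of the series' design text (0.05 and 1.5-fold). Standard errors (SE) are the log2 fold change over the square root of F. Genes named were up to 15 per direction in S228A against WT at 1 CPM or more with no overlap with WT, the called genes or smallest p in the S228E comparisons (up to 10 per direction), up to 4 per family, the 5 highest per kb and the 2 on each side of the limit. YCR102W-A, YFL066C, MAN2, AGP3, IRC4 and MMP1 fall outside this rule, as do the left-out rows shown beside members, and were chosen after their values were seen. The members, gene lists and tests were chosen with earlier results of these data known. The fit was tested on simulated data. Alternatives were RLE scaling, no filter, DESeq2 1.42.0, limma-voom (limma 3.58.1), a replicate block, fitting only the 2 strains compared, and leaving out each library. P-values measure the spread between these libraries.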

Additional observations from a re-analysis of the deposited data

How the results depend on the processing

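Under the 15 alternatives, 19 of the 27 subtelomeric calls in S228A against WT and 16 of the 31 in S228E against S228A were kept in every one. Leaving out 1 library at a time gave 13 to 22 called higher and 10 to 14 called lower in S228A against WT, 6 to 12 and 13 to 23 in S228E against S228A, and 0 in S228E against WT. Shares of all tested rows called in the alternative fits are not given here, so these counts of members have no background beside them. The median log2 fold change ranged from -0.05 (without S228A replicate 3) to 0.05 in S228A against WT, from -0.12 to -0.06 in S228E against WT, and from -0.15 to -0.08 in S228E against S228A, where it was -0.09 with no filter on low counts. A replicate block gave 15 and 12 calls in S228A against WT, 0 in S228E against WT, and 9 and 19 in S228E against S228A; same-numbered libraries did not deviate together (correlations from -0.314 to 0.303), so the numbers were not taken as pairs.

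Values near 0 that changed sign were all uncalled ones of S228A against WT. Without S228A replicate 2 they were AAD4 at 0.00, ARR3 at -0.00, ARR2 at 0.09 and HYR1 at 0.02; without S228A replicate 3, ADH7 at -0.01 and GAB1 at -0.04; without WT replicate 2, ADH7 at -0.02 and ARR2 at 0.05; and without WT replicate 1, ARR2 at 0.02. ARR2 was also at 0.01 under RLE scaling, DESeq2 and the fit of only the 2 strains, and at 0.00 without any 1 S228E library. Over the libraries left out, ARR3 ranged up to 0.10, ADH7 up to 0.16, GAB1 up to 0.11 and HYR1 down to -0.17. The cause was not tested. Low counts limit rows within 5 kb of an end most, and repeats make the split between copies uncertain.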
